A study of Mus musculus with 12 samples.

Results

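The genes described here are 8 genes of red blood cell formation: the globins Hbb-b1, Hbb-bh1, Hbb-y and Hba-x, the haem synthesis enzymes Alas2 and Fech, the membrane protein gene Slc4a1 and the transcription factor gene Gata1. They were found by taking every array probe whose only gene symbol was one of these names, which gave 13 probes of 20736 and 8 genes of 8708. These genes, and the lists used below, were chosen with earlier results of these data known. Counts of them beside shares of all features therefore describe the data and are no independent test. Hbb-y had 4 probes, Hbb-b1 and Fech had 2 each, and the other 5 genes had 1. RNA of mouse spleen T cells or kidney cells was hybridised to cDNA arrays with 2 colour channels, on 12 arrays in 6 groups of 2. In every group the second channel held RNA of B6 mice from the same tissue. Spleen T cells came from NOD mice, which develop autoimmune diabetes, from NOD.H2h4 mice, which have another major histocompatibility complex haplotype on the NOD background, and from B6.NODIdd1,5 mice, which carry the NOD diabetes intervals Idd1 and Idd5 on the B6 background. Kidney cells of B6.NODIdd1,5 mice made up the fourth group. The last groups were spleen T cells of mice given bone marrow, named NODtoB6 and B6toNOD, read here as NOD marrow in B6 hosts and B6 marrow in NOD hosts. The labels give no age, sex, sorting step, host conditioning or share of donor cells, and do not state that the arrays of a group came from separate animals, so the p-values measure the spread between arrays, which may be technical.

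Globins are the subunits of haemoglobin. In mice the beta-like genes Hbb-y and Hbb-bh1 and the alpha-like gene Hba-x are used by the primitive red cells of the embryo, and Hbb-b1 is an adult beta globin. Haem, the iron-holding group of haemoglobin, is made by a chain of enzymes: Alas2, the form of 5-aminolevulinate synthase used in erythroid cells, opens the chain, and Fech, ferrochelatase, closes it by inserting iron. Slc4a1, also called band 3, is the anion exchanger of the red cell membrane, and Gata1 is a transcription factor needed for erythroid and megakaryocyte development. The spleen of adult mice holds red cells and can hold their precursors next to lymphocytes.

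The RefSeq promoter table held 4 of the 8 genes, and the promoters of these are shown. The transcripts of Hbb-y, Hba-x and Alas2 had like patterns over the arrays. The likeness of Gata1 to them changed with the arrays used and with the direction assumed for the marrow transfer arrays. Each run covers 250 bases before to 50 bases after the start of the gene on the gene's strand in GRCm38.p6. Capitals mark matches on either strand to AGATAA or TGATAA, which are forms of the sequence bound by GATA factors, to CACCC, which is bound by factors of the Klf family, and to TATAAA.

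Hbb-y promoter, chr7:103853158-103853457, minus strand: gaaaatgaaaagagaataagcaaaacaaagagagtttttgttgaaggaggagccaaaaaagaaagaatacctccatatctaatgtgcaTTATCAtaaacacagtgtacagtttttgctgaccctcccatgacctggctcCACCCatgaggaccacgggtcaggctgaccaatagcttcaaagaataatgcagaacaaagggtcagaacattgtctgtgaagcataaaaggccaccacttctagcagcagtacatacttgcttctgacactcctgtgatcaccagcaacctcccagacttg
Hba-x promoter, chr11:32276350-32276649, plus strand: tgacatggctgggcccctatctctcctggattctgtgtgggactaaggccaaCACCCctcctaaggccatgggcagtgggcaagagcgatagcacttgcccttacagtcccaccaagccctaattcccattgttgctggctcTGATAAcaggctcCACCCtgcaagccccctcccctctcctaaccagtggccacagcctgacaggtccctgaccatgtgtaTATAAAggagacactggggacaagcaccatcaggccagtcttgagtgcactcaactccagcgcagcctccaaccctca
Alas2 promoter, chrX:150547167-150547466, plus strand: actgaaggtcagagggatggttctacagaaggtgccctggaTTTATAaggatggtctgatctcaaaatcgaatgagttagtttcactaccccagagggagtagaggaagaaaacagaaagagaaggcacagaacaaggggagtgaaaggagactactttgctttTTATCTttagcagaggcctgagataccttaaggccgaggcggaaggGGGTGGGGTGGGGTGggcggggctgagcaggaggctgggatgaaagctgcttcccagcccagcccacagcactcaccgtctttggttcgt
Gata1 promoter, chrX:7967861-7968160, minus strand: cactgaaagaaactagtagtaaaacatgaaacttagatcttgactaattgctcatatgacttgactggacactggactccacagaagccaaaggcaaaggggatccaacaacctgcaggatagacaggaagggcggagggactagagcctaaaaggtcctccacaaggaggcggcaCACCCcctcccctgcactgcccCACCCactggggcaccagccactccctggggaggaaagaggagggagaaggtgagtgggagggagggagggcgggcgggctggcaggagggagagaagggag

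Of all 32851 promoters in the table, 18.6% held AGATAA or TGATAA, 57.5% held CACCC and 13.6% held TATAAA. The windows of Hbb-y, Hba-x and Alas2 each held 1 match to AGATAA or TGATAA, and the Gata1 window held none. Other forms of the sequence bound by GATA factors were not searched. Matches to CACCC were found once in Hbb-y, in 2 places in Hba-x and in Gata1, and in 3 adjoining places in Alas2. Hba-x had TATAAA with its first base at position -28 from the start of the gene, and in Alas2 the match to TATAAA was on the other strand at -209. These are matches of letters only and show neither a bound factor nor a cause of the values below.

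All values are log2 ratios of the named mice to B6, after setting the median of each array to 0, so that 1 means a doubling against the typical feature of that array. A ratio carries no level, so one gene cannot be set against another in abundance, and the labelled tissue cannot be checked by the absolute level of its markers. Each array had values for 18837 to 20558 probes, and its median as deposited lay between -0.87 and -0.0072. Over features, Pearson's r was 0.505 to 0.76 between arrays of a group and -0.022 to 0.447 between arrays of different groups. Centring raised the values of a group by 0.15 in NOD, 0.19 in B6.NODIdd1,5 T cells, 0.22 in NODtoB6, 0.46 in kidney, 0.73 in B6toNOD and 0.81 in NOD.H2h4. The labels state the dyes of the strain arrays, Cy5 for the named mice, but not those of the marrow transfer arrays, whose direction was assumed to be the same. Differences were tested with limma over all features, with Benjamini-Hochberg adjustment and a threshold of 0.05, and errors are standard errors of that fit with n = 2 arrays per group. The smallest p that an exact permutation test of 2 against 2 arrays can reach is 0.333, so none was used.

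The adult beta globin Hbb-b1 was highest in NOD T cells, at 3.33 and 3.29 on the arrays of replicates 1 and 2. It was at 2.57 and 3.09 in NODtoB6, 1.84 and 1.88 in NOD.H2h4, and 1.71 on both B6toNOD arrays. Kidney cells gave 0.051 and -0.17, and B6.NODIdd1,5 T cells gave -1.08 and -1.30. No neighbouring groups in this order overlapped, and 9 of 12 arrays were above 0. Both strains with an NOD background were therefore above B6 on every array, and T cells of the congenic mice with a B6 background were below it on both.

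The embryonic beta globin Hbb-bh1 was also lowest in B6.NODIdd1,5 T cells, but highest in NODtoB6. NODtoB6 T cells were at 3.04 and 3.15, NOD at 2.73 and 2.90, B6toNOD at 0.45 and 0.52, kidney at 0.28 and 0.21, and B6.NODIdd1,5 T cells at -0.35 and -0.33. Its only probe had no value on either NOD.H2h4 array, so that group is not described for this gene. The other embryonic beta globin, Hbb-y, was at 2.83 and 2.63 in NODtoB6, 2.01 and 2.0 in NOD, 0.71 and 0.73 in NOD.H2h4 and 0.85 and 0.51 in B6toNOD. Kidney cells gave 0.14 and 0.016 for Hbb-y, and B6.NODIdd1,5 T cells gave -0.48 and -0.46. NOD.H2h4 and B6toNOD overlapped for this gene and no other neighbours in the order did.

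The embryonic alpha globin Hba-x followed the same order of groups as Hbb-y. It was at 2.62 and 2.44 in NODtoB6, 1.81 and 1.89 in NOD, 0.84 and 0.78 in NOD.H2h4 and 0.92 and 0.64 in B6toNOD. Kidney cells gave 0.48 and 0.12, and B6.NODIdd1,5 T cells gave -0.29 and -0.35. Again only NOD.H2h4 and B6toNOD overlapped. Hba-x on chromosome 11 and Hbb-y on chromosome 7 thus ranked the groups alike.

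Of the haem synthesis enzymes, Alas2 came closest to the embryonic globins. It was at 2.78 and 2.83 in NODtoB6, 2.21 and 1.65 in NOD, 0.66 and 0.79 in NOD.H2h4 and 0.40 and 0.57 in kidney. B6.NODIdd1,5 T cells gave -0.63 and -1.07. In B6toNOD replicate 1 was at 1.62 and replicate 2 had no value, so Alas2 was not tested there. No neighbouring groups overlapped, with B6toNOD resting on 1 array.

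Fech, the last enzyme of the chain, was at 1.88 and 1.80 in NODtoB6, 1.19 and 1.16 in NOD and 0.74 and 0.40 in B6toNOD. It was near 0 in kidney, at 0.049 and 0.15, and below 0 in NOD.H2h4, at -0.37 and -0.46. The arrays of B6.NODIdd1,5 T cells lay on opposite sides of 0, at -0.72 and 0.70, and so overlapped the groups on either side. The upper 3 groups of Fech were separate from each other, but the array at 0.70 lay within the range of B6toNOD.

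The band 3 gene Slc4a1 spread more within groups than the globins did in NOD, NOD.H2h4, B6toNOD and B6.NODIdd1,5 T cells. In NODtoB6 it spread less than all of them, and in kidney less than all but Hbb-bh1. It was at 1.04 and 1.27 in NOD and at 0.74 and 0.82 in NODtoB6, the only groups with both arrays above 0. NOD.H2h4 gave -0.59 and 0.20, B6toNOD gave -1.86 and 0.19, kidney gave -1.21 and -1.10, and B6.NODIdd1,5 T cells gave -2.33 and -1.33. The arrays of B6toNOD overlapped those of NOD.H2h4, kidney and B6.NODIdd1,5 T cells.

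Gata1 had another order of groups. It was highest in NOD.H2h4, at 0.72 and 0.62, followed by NOD at 0.19 and 0.094. Kidney gave -0.29 and -0.37, NODtoB6 -0.51 and -0.18 and B6.NODIdd1,5 T cells -0.53 and -0.44, with NODtoB6 overlapping both of the others. B6toNOD was lowest, at -1.32 and -1.02. NODtoB6, where 3 of the 4 globins were highest, was thus below 0 for Gata1 on both arrays.

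**Figure D1:**
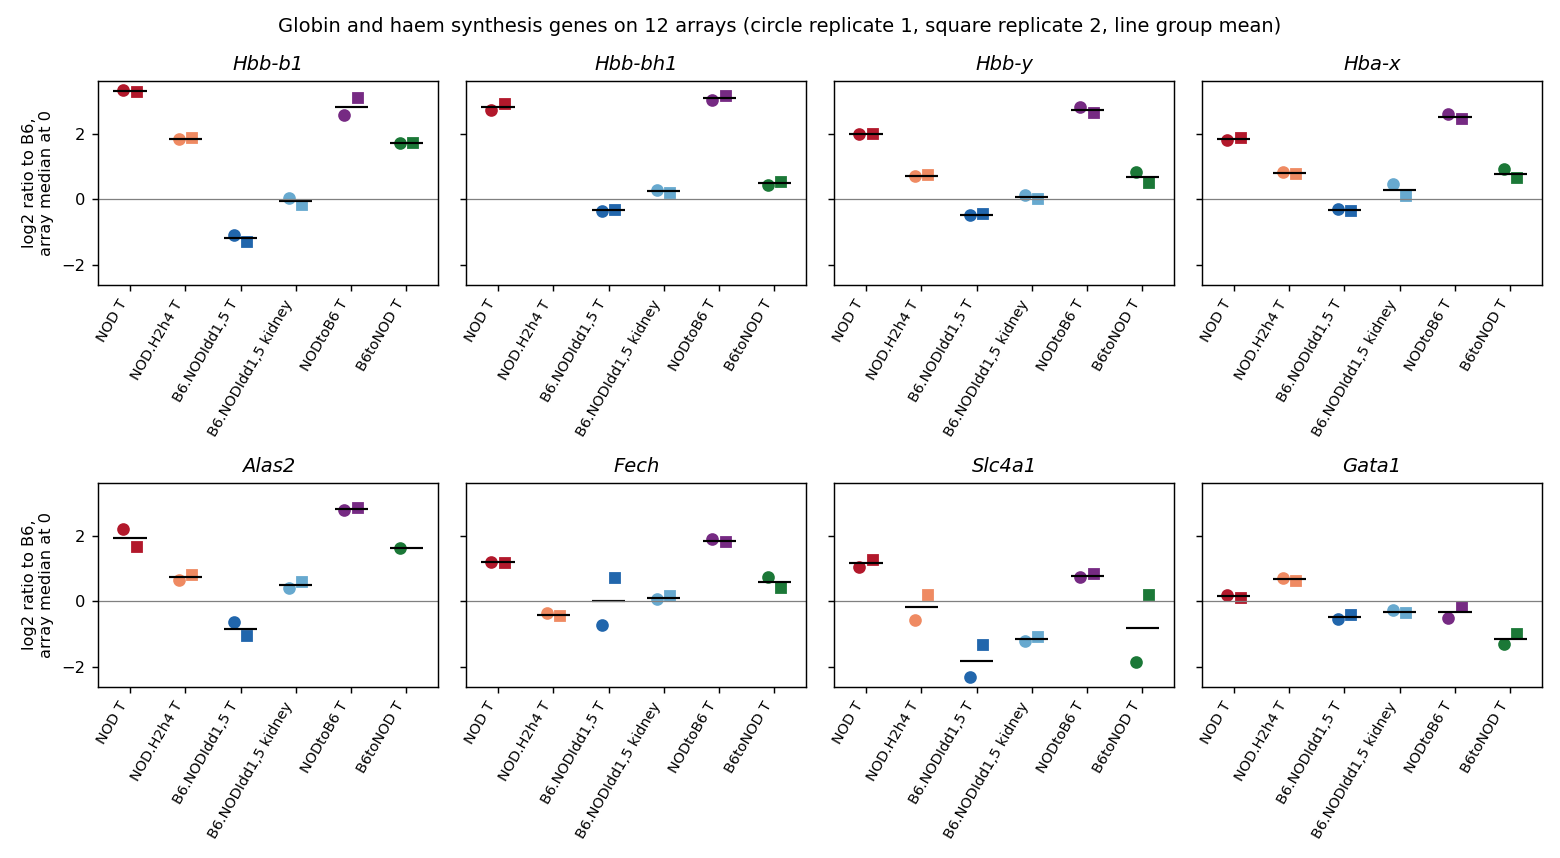
Centred log2 ratio to B6 (vertical axis) of each of the 8 genes in the 6 groups (horizontal axis), with a circle for replicate 1, a square for replicate 2 and a line at the group mean. The NOD and NODtoB6 arrays are highest for the 4 globins, Alas2, Fech and Slc4a1, and the NOD.H2h4 arrays are highest for Gata1. Hbb-bh1 has no value in NOD.H2h4, and Alas2 has 1 array in B6toNOD.

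Where a gene had several probes they did not always give the same picture. The 2 probes of Hbb-b1, array positions 5410 and 10282, were both high in NOD (2.97 to 3.6) and both low in B6.NODIdd1,5 T cells (-1.51 to -1.06). In kidney they went opposite ways: probe 5410 was at 0.73 and 0.86 (mean 0.79 ± 0.070, adjusted p = 0.000328 by limma over all probes) and probe 10282 at -0.63 and -1.19 (mean -0.91 ± 0.22, adjusted p = 0.0167). The mean of Hbb-b1 in kidney, near 0, therefore stands for 2 probes that disagree, and without centring they were at 0.33 (adjusted p = 0.066) and -1.37 (adjusted p = 0.00804). In NOD.H2h4 minus NOD, probe 5410 was lower by 2.14 ± 0.099 on the log2 scale (adjusted p = 0.000515) and probe 10282 was at -0.77 ± 0.31 (adjusted p = 0.135).

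The 4 probes of Hbb-y lay within 0.64 of each other on every array but those of B6toNOD, where the gap was 1.11 and 1.36. There probe 9233 was at 1.44 and 1.32 and probe 9617 at 0.33 and -0.039. Probe 8906 of Fech tracked the globins more closely than the mean of both probes did: it was higher in NOD (1.06 ± 0.10, adjusted p = 0.00179), in NODtoB6 (1.73 ± 0.10, adjusted p = 6.74e-05) and in B6toNOD (0.51 ± 0.10, adjusted p = 0.0048), and lower in B6.NODIdd1,5 T cells (-0.44 ± 0.10, adjusted p = 0.0162). Without centring its B6toNOD value was -0.22 (adjusted p = 0.161). The other Fech probe, 16311, was at -0.84 and 1.69 on the B6.NODIdd1,5 T cell arrays and at -0.97 and -1.07 in NOD.H2h4, where probe 8906 was at 0.23 and 0.15. Probes of related globins can bind each other's RNA, and which globin RNA each probe bound was not tested.

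**Figure D2:**
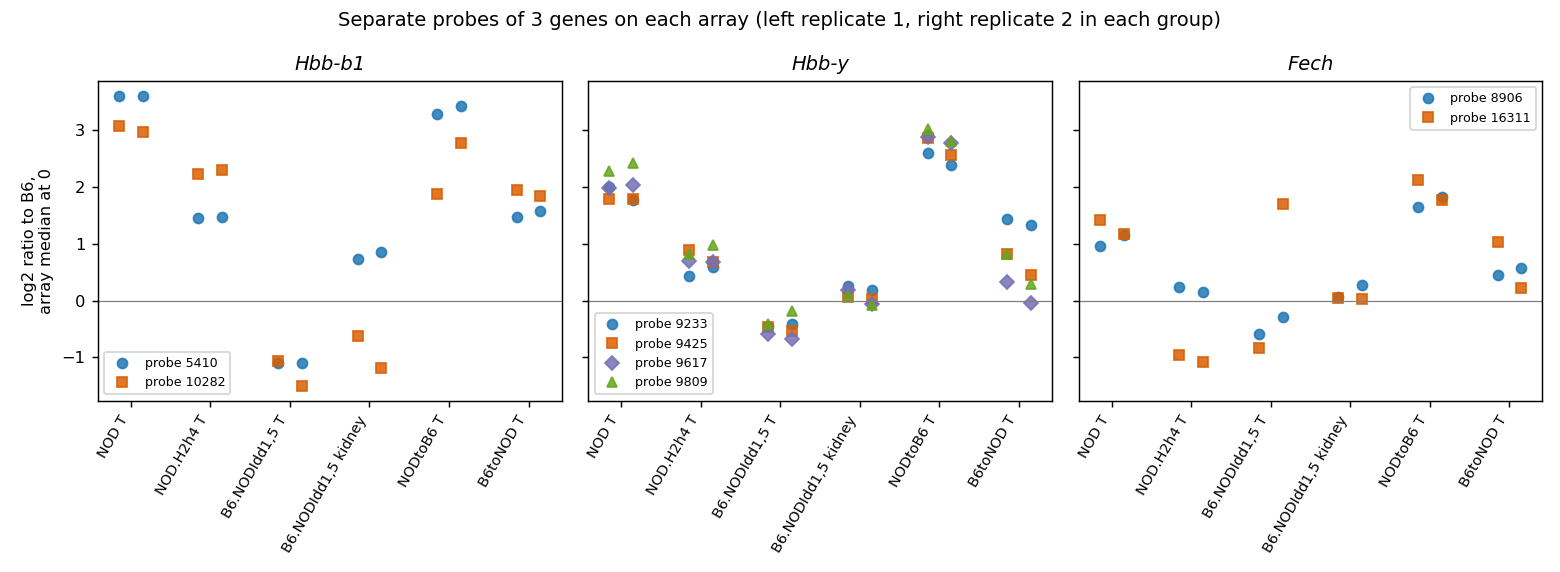
Centred log2 ratio to B6 (vertical axis) of each probe of Hbb-b1, Hbb-y and Fech on the 12 arrays (horizontal axis, by group, replicate 1 left of replicate 2). The Hbb-b1 probes lie on opposite sides of 0 in kidney, the Hbb-y probes spread most in B6toNOD, and the Fech probes part in NOD.H2h4 and on 1 array of B6.NODIdd1,5 T cells.

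NOD T cells were compared with B6 T cells to find what differs in the diabetes-prone strain. All 4 globins and both haem enzymes were higher in NOD: Hbb-b1 by 3.31 ± 0.13 (9.91-fold), Hbb-bh1 by 2.81 ± 0.076 (7.03-fold), Hbb-y by 2.0 ± 0.097 (4.01-fold), Hba-x by 1.85 ± 0.11 (3.6-fold), Alas2 by 1.93 ± 0.16 (3.80-fold) and Fech by 1.18 ± 0.28 (2.26-fold). Slc4a1 was at 1.16 ± 0.45 (adjusted p = 0.166) and Gata1 at 0.14 ± 0.11 (adjusted p = 0.542), and neither passed. Thus 6 of 8 genes were higher and 0 lower, against 9.62% of all features higher and 2.45% lower. Other processing, described at the end, gave 3.16 to 5.80 for Hbb-b1, 2.66 to 4.91 for Hbb-bh1, 1.86 to 3.51 for Hbb-y and 1.68 to 3.23 for Hba-x. Adjusted p was 9.6e-06 for Hbb-b1, 8.28e-06 for Hbb-bh1, 3.92e-05 for Hbb-y, 0.000115 for Hba-x, 0.00164 for Alas2 and 0.034 for Fech. Without centring Fech was at 1.03 and did not pass, nor did it pass without the kidney arrays in the fit. The call of Fech was lost without any single array of NOD, NOD.H2h4, kidney or NODtoB6 (1.16 to 1.19, adjusted p = 0.0505 to 0.261), and Slc4a1 passed without either B6toNOD array (adjusted p = 0.0327). In bulk RNA, more cells of a type and more RNA per cell cannot be told apart.

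NOD.H2h4 T cells shared the direction of the globins with smaller values. Hbb-b1 was higher than in B6 by 1.86 ± 0.13 (3.62-fold, adjusted p = 7.01e-05), Hba-x by 0.81 ± 0.11 (adjusted p = 0.000949), Hbb-y by 0.72 ± 0.097 (adjusted p = 0.000926) and Alas2 by 0.72 ± 0.16 (adjusted p = 0.013). Gata1 was higher by 0.67 ± 0.11 (adjusted p = 0.00195), the only group in which it was. Of the 7 genes tested 5 were higher and 0 lower, against 24.4% and 15.1% of features. Without centring Hbb-b1 was at 1.05 and still passed. Hbb-y was then at -0.088, Hba-x at 0.0040, Alas2 at -0.086 and Gata1 at -0.14, so their calls hold only against the middle of each array. With the arrays scaled to the same spread Hbb-y was at 0.58 (adjusted p = 0.0712) and Alas2 at 0.59 (adjusted p = 0.3). Alas2 also lost its call without either NOD.H2h4 array (0.66 and 0.79, adjusted p = 0.0763 to 0.122), and Fech, at -0.42 ± 0.28 (adjusted p = 0.274), passed as lower without either B6.NODIdd1,5 T cell array (adjusted p = 0.0148).

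Set against NOD itself, NOD.H2h4 T cells had lower Hbb-b1 (-1.45 ± 0.18, adjusted p = 0.00324), Hbb-y (-1.28 ± 0.14, adjusted p = 0.00236), Hba-x (-1.03 ± 0.16, adjusted p = 0.00608), Alas2 (-1.20 ± 0.23, adjusted p = 0.0161) and Fech (-1.59 ± 0.39, adjusted p = 0.0301). Gata1 was higher by 0.53 ± 0.15 (adjusted p = 0.0471), and Slc4a1, at -1.35 ± 0.64, did not pass (adjusted p = 0.2). Of the 7 genes tested 5 were lower and 1 higher, against 6.16% and 12.3% of features. The call of Gata1 was lost without any single array of NOD, NOD.H2h4, kidney or B6.NODIdd1,5 T cells (0.48 to 0.58, adjusted p = 0.0622 to 0.194), and its value was -0.13 without centring. Fech lost its call without any array of NOD, NOD.H2h4 or kidney (adjusted p = 0.0552 to 0.126), Alas2 without NOD replicate 1 or either NOD.H2h4 array (adjusted p = 0.0615 to 0.086), and Slc4a1 passed without either B6toNOD array (adjusted p = 0.0426).

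B6.NODIdd1,5 T cells, from mice with NOD alleles at the Idd intervals alone, differed from B6 in the other direction. Hbb-b1 was lower than in B6 by 1.19 ± 0.13 on the log2 scale (2.28-fold), Slc4a1 by 1.83 ± 0.45 (3.56-fold) and Alas2 by 0.85 ± 0.16 (1.81-fold). Gata1 (-0.48 ± 0.11), Hbb-y (-0.47 ± 0.097) and Hbb-bh1 (-0.34 ± 0.076) were lower by less. Hba-x was at -0.32 ± 0.11 (adjusted p = 0.0637) and Fech at -0.0071 ± 0.28 (adjusted p = 0.989). Thus 6 of 8 genes were lower and 0 higher, against 15.5% and 15.2% of features, with adjusted p = 0.000531 for Hbb-b1 and 0.0093 to 0.02 for the other 5. With one of its own arrays left out the group kept the call of Hbb-b1, while Hbb-bh1, Hbb-y and Gata1 lost theirs without either array (adjusted p = 0.0545 to 0.111), Alas2 without replicate 2 (-0.63, adjusted p = 0.0863) and Slc4a1 without replicate 1 (-1.33, adjusted p = 0.193). With the arrays scaled to the same spread Hbb-bh1 (-0.36, adjusted p = 0.212), Hbb-y (-0.51, adjusted p = 0.101) and Alas2 (-0.92, adjusted p = 0.111) did not pass. Hba-x passed without either B6toNOD array (adjusted p = 0.0441), and Fech passed as lower without replicate 2 (-0.72, adjusted p = 0.0124) and as higher without replicate 1 (0.70, adjusted p = 0.013).

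The congenic T cells were then set against NOD T cells. Hbb-b1 was 22.6-fold lower in B6.NODIdd1,5 than in NOD T cells (-4.50 ± 0.18, adjusted p = 1.08e-05), Hbb-bh1 8.87-fold lower (-3.15 ± 0.11, adjusted p = 1.82e-05), Slc4a1 7.93-fold lower (-2.99 ± 0.64, adjusted p = 0.015), Alas2 6.87-fold lower (-2.78 ± 0.23, adjusted p = 0.000554), Hbb-y 5.55-fold lower (-2.47 ± 0.14, adjusted p = 5.14e-05) and Hba-x 4.49-fold lower (-2.17 ± 0.16, adjusted p = 0.000146). Gata1 was lower by 0.62 ± 0.15 on the log2 scale (adjusted p = 0.0224), and Fech, at -1.19 ± 0.39, did not pass (adjusted p = 0.0656). Of 8 genes 7 were lower and 0 higher, against 14.3% and 9.78% of features. Other processing gave -7.09 to -4.24 for Hbb-b1, -5.28 to -3.06 for Hbb-bh1, -4.02 to -2.25 for Hbb-y and -3.58 to -1.75 for Hba-x. Slc4a1 lost its call without either NOD array or B6.NODIdd1,5 replicate 1 (-3.10 to -2.49, adjusted p = 0.0578 to 0.087), Gata1 without any array of either group (adjusted p = 0.0519 to 0.0948), and Fech passed without B6.NODIdd1,5 replicate 2 (-1.90, adjusted p = 0.00089).

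In kidney cells of the congenic mice 1 gene passed. Gata1 was lower by 0.33 ± 0.11 on the log2 scale (adjusted p = 0.0489), and the other 7 did not pass, with values from -1.16 ± 0.45 for Slc4a1 (adjusted p = 0.0903) to 0.49 ± 0.16 for Alas2 (adjusted p = 0.0605). The 95% intervals of the fit were -0.35 to 0.24 for Hbb-b1, 0.06 to 0.43 for Hbb-bh1, -0.15 to 0.31 for Hbb-y, 0.04 to 0.56 for Hba-x, 0.10 to 0.87 for Alas2, -0.55 to 0.75 for Fech and -2.21 to -0.10 for Slc4a1. Values that did not pass are therefore not shown to equal B6, and the Hbb-b1 mean joins probes of opposite sign, as given above. Without centring Hbb-bh1 was at -0.22, Hbb-y at -0.38, Hba-x at -0.16 and Fech at -0.36, and none of these passed. Thus 1 of 8 genes was lower and 0 higher, against 11% and 22.5% of features. The call of Gata1 was lost without any single array of NOD, NOD.H2h4 or either B6.NODIdd1,5 group (-0.37 to -0.29, adjusted p = 0.0617 to 0.301). Hbb-bh1 (adjusted p = 0.0476) and Slc4a1 (adjusted p = 0.014) passed without either B6toNOD array, and Alas2 without any NOD or B6toNOD array (adjusted p = 0.0371 to 0.0481). In a contrast added after the data were seen, T cells minus kidney of these mice, 5 of 8 genes were lower and 0 higher, against 13.5% and 6.96% of features: Hbb-b1, Hbb-bh1, Hbb-y, Hba-x and Alas2 with differences of -1.34 to -0.55. None of the 5 passed without centring.

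The marrow transfer arrays hold T cells from mice whose marrow and host strain differ by name. In NODtoB6 T cells Hbb-bh1 was higher than in B6 by 3.10 ± 0.076 (8.55-fold), Hbb-b1 by 2.83 ± 0.13 (7.12-fold), Alas2 by 2.81 ± 0.16 (7.0-fold), Hbb-y by 2.73 ± 0.097 (6.63-fold), Hba-x by 2.53 ± 0.11 (5.78-fold) and Fech by 1.84 ± 0.28 (3.58-fold). Their adjusted p ran from 5.31e-06 for Hbb-bh1 to 0.00399 for Fech. Slc4a1 was at 0.78 ± 0.45 (adjusted p = 0.24), and Gata1 was lower by 0.35 ± 0.11 on the log2 scale (adjusted p = 0.0467). Thus 6 of 8 genes were higher and 1 lower, against 13.3% and 13.5% of features. Gata1 lost its call without any single array of NOD, NOD.H2h4 or either B6.NODIdd1,5 group and without NODtoB6 replicate 1 (-0.35 to -0.18, adjusted p = 0.0598 to 0.377). If the dyes of these arrays were exchanged, every direction in this group would turn.

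In B6toNOD T cells Hbb-b1 was higher than in B6 by 1.71 ± 0.13 (3.27-fold, adjusted p = 3.69e-05), Hba-x by 0.78 ± 0.11 (adjusted p = 0.000826), Hbb-y by 0.68 ± 0.097 (adjusted p = 0.000885) and Hbb-bh1 by 0.49 ± 0.076 (adjusted p = 0.00224). Gata1 was lower by 1.17 ± 0.11 on the log2 scale (2.25-fold, adjusted p = 8.95e-05). Fech was at 0.57 ± 0.28 (adjusted p = 0.121) and Slc4a1 at -0.83 ± 0.45 (adjusted p = 0.16). Of the 7 genes tested 4 were higher and 1 lower, against 27.5% and 23.9% of features. These directions would also turn if the dyes of the B6toNOD arrays were exchanged. Without centring Hbb-b1 was at 0.98 and Gata1 at -1.90, and both still passed. Hba-x was then at 0.046, Hbb-y at -0.056 and Hbb-bh1 at -0.25, and none of these passed. With scaled arrays they were at 0.49, 0.42 and 0.30 (adjusted p = 0.0816 to 0.298). Slc4a1 passed without B6toNOD replicate 2 (-1.86, adjusted p = 0.00694), and Fech without either B6.NODIdd1,5 T cell array (adjusted p = 0.00311).

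Between the transfers, NODtoB6 exceeded B6toNOD for all globins with the direction assumed for these arrays. With the NODtoB6 arrays turned, all globins would be lower than in B6toNOD. With only the arrays of these groups in the fit, none of the globins passed (adjusted p = 0.0664 to 0.0923 by limma). Hbb-bh1 was higher by 2.61 ± 0.11 (6.10-fold, adjusted p = 6.15e-05), Hbb-y by 2.05 ± 0.14 (4.15-fold, adjusted p = 9.7e-05), Hba-x by 1.75 ± 0.16 (3.37-fold, adjusted p = 0.000215) and Hbb-b1 by 1.12 ± 0.18 (2.17-fold, adjusted p = 0.0025). Fech was higher by 1.27 ± 0.39 (adjusted p = 0.0398), Gata1 by 0.82 ± 0.15 (adjusted p = 0.00449), and Slc4a1 was at 1.61 ± 0.64 (adjusted p = 0.0882). Of the 7 genes tested 6 were higher and 0 lower, against 14.4% and 21.6% of features. Fech lost its call without any single array of NOD, NOD.H2h4, kidney, NODtoB6 or B6toNOD (1.10 to 1.44, adjusted p = 0.0625 to 0.131), and Slc4a1 passed without B6toNOD replicate 2 (2.64, adjusted p = 0.00495).

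Against NOD, B6toNOD was lower for Hbb-bh1 (-2.33 ± 0.11, 5.02-fold, adjusted p = 6.01e-05), Hbb-b1 (-1.60 ± 0.18, adjusted p = 0.000519), Hbb-y (-1.33 ± 0.14, adjusted p = 0.00038), Gata1 (-1.31 ± 0.15, adjusted p = 0.000563), Hba-x (-1.07 ± 0.16, adjusted p = 0.00161) and Slc4a1 (-1.99 ± 0.64, adjusted p = 0.0454). Fech was at -0.61 ± 0.39 (adjusted p = 0.268). Of the 7 genes tested 6 were lower and 0 higher, against 16.8% and 19.2% of features. With the B6toNOD arrays turned Gata1 would be higher than in NOD. Other processing with the assumed signs kept gave -4.74 to -1.58 for Hbb-b1, -4.61 to -2.24 for Hbb-bh1, -3.09 to -1.15 for Hbb-y and -2.74 to -0.93 for Hba-x. Slc4a1 lost its call without any array of NOD, NOD.H2h4, kidney or NODtoB6 and without B6toNOD replicate 1 (-2.10 to -0.96, adjusted p = 0.0599 to 0.17), and Fech passed without either B6.NODIdd1,5 T cell array (adjusted p = 0.0146).

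With the assumed direction NODtoB6 differed less from NOD. Values with the NODtoB6 arrays turned, given at the end, lie further from NOD. Alas2 was higher in NODtoB6 by 0.88 ± 0.23 (adjusted p = 0.0421), Hbb-y by 0.73 ± 0.14 (adjusted p = 0.0121) and Hba-x by 0.68 ± 0.16 (adjusted p = 0.0227). None of these 3 passed without centring. Hbb-b1 was at -0.48 ± 0.18 (95% interval -0.90 to -0.06, adjusted p = 0.108) and Hbb-bh1 at 0.28 ± 0.11 (0.02 to 0.54, adjusted p = 0.125). With 3 of 8 genes higher and 0 lower, against 7.38% and 11.8% of features, this order did not hold when the arrays were scaled to the same spread: Hbb-bh1 was then at -1.52 (adjusted p = 0.00842), Hbb-y at -0.51, Hba-x at -0.44, Alas2 at -0.35 and Hbb-b1 at -2.71 (adjusted p = 0.00264). Single arrays also ended calls: Hbb-y without NOD replicate 2 (0.72, adjusted p = 0.0702), Hba-x without either NOD array or NODtoB6 replicate 1 (adjusted p = 0.0812 to 0.0935), and Alas2 without NOD replicate 2 or any array of NOD.H2h4, kidney or NODtoB6 (adjusted p = 0.0725 to 0.188). Hbb-b1 passed as lower without NODtoB6 replicate 2 (-0.74, adjusted p = 0.0241), Gata1, at -0.49 ± 0.15 (adjusted p = 0.0596), without that array or either B6toNOD array (adjusted p = 0.037 to 0.0395), and Fech, at 0.66 ± 0.39 (adjusted p = 0.295), without either B6.NODIdd1,5 T cell array (adjusted p = 0.022). The comparisons with NOD share the NOD arrays and are not independent of each other.

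**Figure D3:**
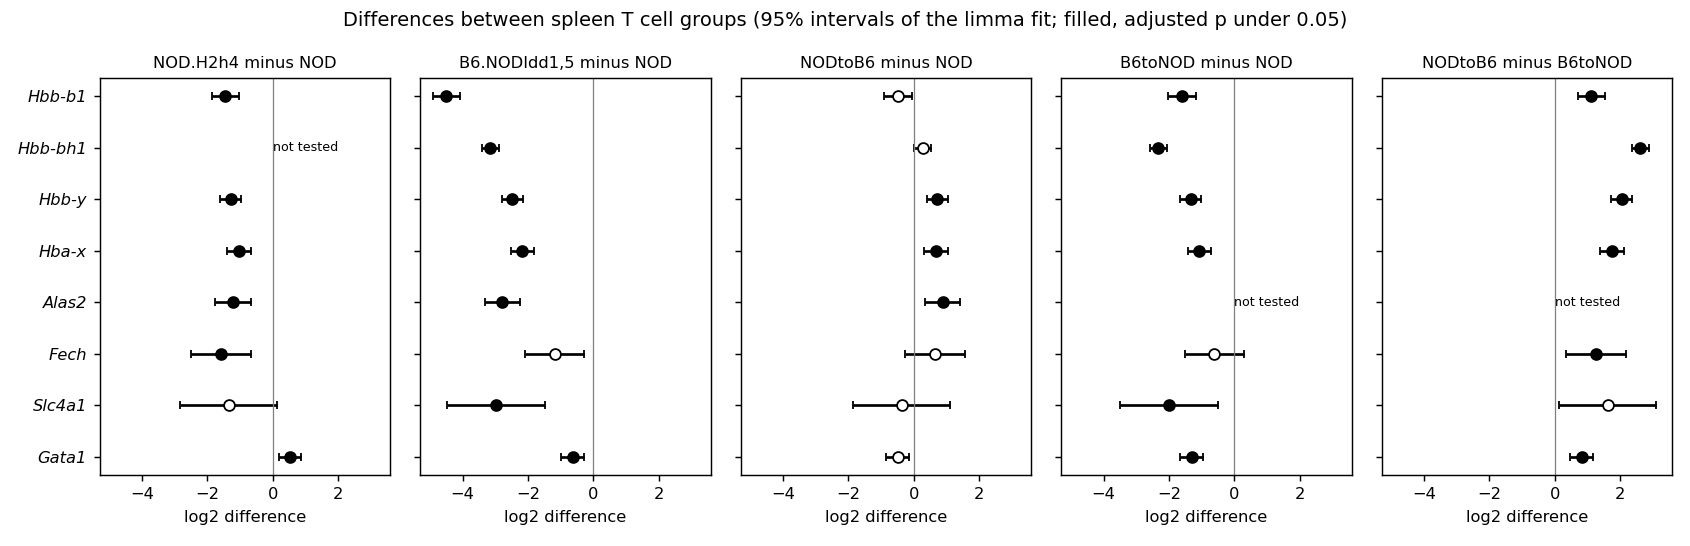
Log2 difference (horizontal axis) of each gene in the 5 comparisons between spleen T cell groups, with the 95% interval of the limma fit; filled points have an adjusted p under 0.05. The differences of the globins from NOD lie below 0 in NOD.H2h4, B6.NODIdd1,5 and B6toNOD, and on both sides of 0 in NODtoB6. The marrow transfer arrays are shown with their assumed direction.

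Over the arrays Hbb-y and Hba-x were nearly parallel, with Pearson's r = 0.997 (12 arrays). Hbb-bh1 had r = 0.977 with Hbb-y and 0.969 with Hba-x (10 arrays), and Hbb-b1 had r = 0.895 to 0.907 with the 3 embryonic globins. Alas2 had r = 0.896 to 0.956 with the globins. Fech had r = 0.594 with Hbb-b1 and 0.796 to 0.863 with the embryonic globins, and Slc4a1 had r = 0.816 to 0.901 with the globins. The r of Gata1 with the other 7 genes ran from -0.22 with Fech to 0.521 with Hbb-bh1. The sign assumed for the marrow transfer arrays moved these values. On the 8 strain arrays alone, 6 to 8 of them per pair, r was 0.977 to 0.998 among the globins, 0.923 to 0.945 for Alas2, 0.463 to 0.792 for Fech and 0.943 to 0.975 for Slc4a1 with the globins, and -0.086 to 0.981 for Gata1 with the other 7 genes. With the NODtoB6 arrays turned, the B6toNOD arrays turned or both, r was 0.934 to 0.997 among the globins and 0.922 to 0.979 for Alas2 with them, and that of Slc4a1 with the globins was 0.327 to 0.626. The r of Gata1 with the others was then -0.515 to 0.66, so no order of Gata1 against the other genes is read from it. These values describe the arrays at hand: the 2 arrays of a group share their source, the second channel of every array held B6 RNA, and no p is given.

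**Figure D4:**
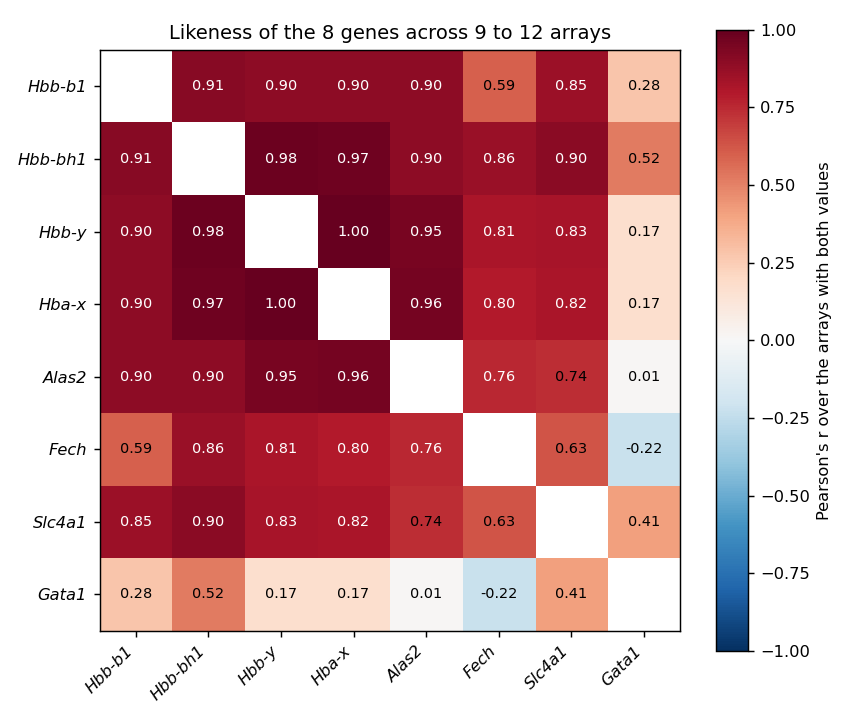
Pearson's r between the centred log2 ratios of each pair of the 8 genes over the 9 to 12 arrays on which both have a value. The globins and Alas2 form a block with r from 0.895 to 0.997, and Gata1 has r from -0.22 to 0.521 with the rest.

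The 3 genes with the most similar pattern were named for each gene among 6910 genes with a value on all 12 arrays, by Pearson's r, and most of these names depend on the setting. Without centring 3 of the 3 names were the same for Hbb-b1 and Gata1, 2 for Hbb-bh1, Hbb-y and Hba-x, 1 for Alas2 and Fech and 0 for Slc4a1. With the NODtoB6 arrays turned 3 were the same for Hbb-b1, 2 for Hbb-bh1 and Alas2, 1 for Hbb-y, Hba-x, Slc4a1 and Gata1 and 0 for Fech. With the B6toNOD arrays turned 2 were the same for Hbb-b1, Hbb-y and Hba-x, 1 for Hbb-bh1, Alas2 and Gata1 and 0 for Fech and Slc4a1. On the 10 spleen arrays 3 were the same for Hbb-b1, 2 for Fech, Slc4a1 and Gata1 and 1 for the other 4 genes. Those of Hbb-b1 were Nap1l4 (0.992), a histone chaperone gene, Nr2f2 (0.983), an orphan nuclear receptor gene, and Cd200 (0.970), which encodes an inhibitory surface glycoprotein. Nr2f2 ran from -0.75 to 3.52 over the arrays, a range close to that of Hbb-b1 (-1.30 to 3.33). Those of Hbb-bh1, over 10 arrays, were the phosphatase gene Ptpn13 (0.992), the proton pump subunit gene Atp6v0d1 (0.974) and the MHC class II chaperone gene H2-DMa (0.957). Ptpn13 (0.967) was also first for Hbb-y, followed by the nucleotide hydrolase gene Samhd1 (0.965) and the cohesin release factor gene Wapl (0.939). For Hba-x they were Samhd1 (0.964), Ptpn13 (0.962) and Pnpla7 (0.937). For Alas2, over 11 arrays, they were Rab31 (0.978), Ppp2r5c (0.956) and Samhd1 (0.955). For Fech they were Ddx47 (0.971), Nrbf2 (0.934) and Tfb2m (0.914), for Slc4a1 Flii (0.958), Usp47 (0.944) and Ifngr2 (0.910), and for Gata1 Dgkq (0.979), Amotl2 (0.978) and Mfap1a (0.969). A high r says nothing of size: Samhd1 covered only -0.13 to 0.55 against -0.48 to 2.83 for Hbb-y.

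Of 23 other listed genes of haem synthesis and iron supply 17 had probes. In NOD 2 of 16 tested were higher, Slc25a37 (0.84 ± 0.097), the mitochondrial iron carrier mitoferrin, and Ftl1 (0.60 ± 0.070), the light chain of the iron store ferritin, and 0 were lower. These counts stand against 9.62% of all features higher and 2.45% lower, and the median of the 16 was 0.14, against -0.0071 over all features. Ftl1 was also higher in NOD.H2h4 (0.32), kidney (0.94), NODtoB6 (0.86) and B6toNOD (1.53) and lower in B6.NODIdd1,5 T cells (-0.53). The marrow values turn with the sign of those arrays.

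The enzymes between Alas2 and Fech, which turn aminolevulinate into protoporphyrin, are given one by one. Alad was higher in NOD.H2h4 (0.58 ± 0.13, adjusted p = 0.0172), and was not tested in NOD and NODtoB6. Uros was higher in B6.NODIdd1,5 T cells (1.14 ± 0.18, adjusted p = 0.00345), and Ppox was lower there (-0.90 ± 0.25, adjusted p = 0.0314). Urod was lower in B6toNOD (-1.21 ± 0.29, adjusted p = 0.0104). Cpox was higher in NOD.H2h4 (0.93 ± 0.097, adjusted p = 0.000279) and kidney (0.33 ± 0.097, adjusted p = 0.0352) and lower in NODtoB6 (-0.44 ± 0.097, adjusted p = 0.0163) and B6toNOD (-0.47 ± 0.097, adjusted p = 0.00543). Alas1, the form of the first enzyme used in all tissues, was higher in NODtoB6 (0.84 ± 0.15, adjusted p = 0.00784) and B6toNOD (0.66 ± 0.15, adjusted p = 0.00873) and was at 0.13 in NOD. In NOD none of the measured enzymes Alas1, Uros, Urod, Cpox and Ppox passed, with values of -0.010 to 0.33. Without centring the values of Alas1 in B6toNOD, Cpox in kidney, and Alad, Ftl1 and Slc25a37 in NOD.H2h4 would lie below 0, since the shift of their group is larger.

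Counts for the whole list against B6 were 4 higher and 3 lower of 17 in NOD.H2h4, 2 and 4 of 16 in B6.NODIdd1,5 T cells, 2 and 3 of 16 in kidney, 5 and 2 of 16 in NODtoB6 and 3 and 5 of 17 in B6toNOD. The shares of all features higher and lower were 24.4% and 15.1% in NOD.H2h4, 15.2% and 15.5% in B6.NODIdd1,5 T cells, 22.5% and 11% in kidney, 13.3% and 13.5% in NODtoB6 and 27.5% and 23.9% in B6toNOD. In B6toNOD Abcb10, a mitochondrial transporter of erythroid cells, was lower (-1.53 ± 0.12, adjusted p = 5.44e-05), and both ferritin chains were higher, Fth1 by 1.46 ± 0.15. Between groups, the list had 1 higher and 1 lower of 16 in NOD.H2h4 minus NOD, 1 and 4 of 15 in B6.NODIdd1,5 minus NOD, 0 and 2 of 16 in NODtoB6 minus NOD, 2 and 4 of 16 in B6toNOD minus NOD and 4 and 3 of 16 in NODtoB6 minus B6toNOD. Of all features 12.3% were higher and 6.16% lower in NOD.H2h4 minus NOD, and 9.78% and 14.3% in B6.NODIdd1,5 minus NOD. The shares were 7.38% and 11.8% in NODtoB6 minus NOD, 19.2% and 16.8% in B6toNOD minus NOD and 14.4% and 21.6% in NODtoB6 minus B6toNOD.

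Of 25 listed genes of the red cell membrane, skeleton and enzymes 11 had probes. Bpgm, which makes the 2,3-bisphosphoglycerate that lowers the oxygen affinity of haemoglobin, was the one that passed with directions like those of the globins in each of NOD (1.37 ± 0.088, adjusted p = 0.000169), NODtoB6 (1.15 ± 0.088, adjusted p = 0.000206), B6toNOD (0.95 ± 0.088, adjusted p = 0.000103) and B6.NODIdd1,5 T cells (-0.64 ± 0.088, adjusted p = 0.00166). It did not pass in NOD.H2h4 or kidney. The Rh blood group gene Rhd was lower in B6.NODIdd1,5 T cells (-1.84 ± 0.16, adjusted p = 0.000415). It was at 0.47 in NOD and 0.51 in NODtoB6 without passing, and was not tested in B6toNOD. Car2 was lower in B6.NODIdd1,5 T cells (-0.58) and higher in kidney (0.86), NODtoB6 (0.88) and B6toNOD (0.92). Ermap was higher in NOD.H2h4 (0.50) and B6toNOD (0.67), by less than the 0.81 and 0.73 that centring added. The marrow values turn with the sign of those arrays. In NOD 3 of 11 were higher and 1 lower (Car2, a carbonic anhydrase, at -0.69 ± 0.17), and the counts were 2 and 0 of 11 in NOD.H2h4, 0 and 3 of 11 in B6.NODIdd1,5 T cells, 2 and 0 of 11 in kidney, 2 and 0 of 10 in NODtoB6 and 4 and 1 of 9 in B6toNOD. The shares of all features higher and lower were 9.62% and 2.45% in NOD, 24.4% and 15.1% in NOD.H2h4 and 15.2% and 15.5% in B6.NODIdd1,5 T cells. They were 22.5% and 11% in kidney, 13.3% and 13.5% in NODtoB6 and 27.5% and 23.9% in B6toNOD. Cat, catalase, was lower in B6toNOD (-1.16 ± 0.076, adjusted p = 2.26e-05) and higher in NOD (0.41 ± 0.076, adjusted p = 0.0152).

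Of 24 listed transcription factors, signals and maturation genes of erythroid cells 13 had probes. None of the 12 tested passed in NOD, and the counts higher and lower were 1 and 1 of 13 in NOD.H2h4, 1 and 2 of 13 in B6.NODIdd1,5 T cells, 1 and 3 of 13 in kidney, 3 and 1 of 12 in NODtoB6 and 2 and 2 of 12 in B6toNOD. Again the shares of all features were 9.62% and 2.45% in NOD, 24.4% and 15.1% in NOD.H2h4 and 15.2% and 15.5% in B6.NODIdd1,5 T cells. They were 22.5% and 11% in kidney, 13.3% and 13.5% in NODtoB6 and 27.5% and 23.9% in B6toNOD. Tal1, a partner of Gata1, was higher in B6.NODIdd1,5 T cells (2.65 ± 0.43, adjusted p = 0.00529), where Bcl2l1, a survival gene of late erythroblasts, was lower (-1.50 ± 0.21, adjusted p = 0.00187). In NODtoB6 Bnip3l (1.58 ± 0.47, adjusted p = 0.0447 by limma), Bcl11a (0.57 ± 0.080, adjusted p = 0.00308) and Xpo7 (0.39 ± 0.11, adjusted p = 0.0422) were higher. Jak2 was lower there (-2.29 ± 0.70, adjusted p = 0.0491). In B6toNOD Runx1 (0.96) and Foxo3 (0.56) were higher, and E2f4 (-0.85) and Bcl11a (-0.28 ± 0.080, adjusted p = 0.0207) were lower. Without centring Foxo3 would lie below 0 there, since the shift of 0.73 is larger. Bcl11a is a repressor of embryonic globins. The directions in both groups turn with the sign of the marrow arrays. Of the erythroid markers Klf1, Epor, Ahsp, Rhag and Epb42 no probe carried the symbol alone, and they are not analysed here. Of 12 other globins and partners listed, Ngb, the globin of neurons, was the one measured: it was higher in NOD.H2h4 (1.12 ± 0.15) and lower in B6.NODIdd1,5 T cells (-1.16 ± 0.15), kidney (-1.29 ± 0.15) and B6toNOD (-1.47 ± 0.15).

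Markers of other cells also differed between the groups. Of 18 neutrophil and myeloid markers 7 had probes, and their mean per array was 0.77 to 0.80 in NOD, 0.32 to 0.35 in NOD.H2h4, -0.68 to 0.075 in B6.NODIdd1,5 T cells, -0.087 to 0.30 in kidney, 1.64 on both NODtoB6 arrays and 3.10 to 3.23 in B6toNOD. S100a9, a calcium-binding protein of neutrophils, was higher by 2.16 ± 0.12 in NOD, 2.33 ± 0.12 in NOD.H2h4, 3.04 ± 0.12 in NODtoB6 and 6.65 ± 0.12 in B6toNOD, and lower by 1.23 ± 0.12 on the log2 scale in B6.NODIdd1,5 T cells. The list was split in several groups. In B6.NODIdd1,5 T cells S100a9, Lcn2 and Lyz2 were lower and Ltf was higher (0.29). In kidney Lyz2 (0.48) and Mmp9 (1.46) were higher, and S100a9 (-0.52) and Fcgr3 (-0.53) were lower. In NOD.H2h4 S100a9, Lcn2 and Ltf were higher, Lyz2 (-0.62) and Fcgr3 (-0.81) were lower, and the median of the 7 was -0.40. The median was 0.59 in NOD, -0.052 in kidney, -0.34 in B6.NODIdd1,5 T cells, 1.28 in NODtoB6 and 2.43 in B6toNOD, where the sign rests on the assumed direction. Of 12 megakaryocyte and platelet markers 4 had probes, and the median of those tested was -0.11 in NOD (4 tested), 0.056 in NODtoB6 (3), -0.81 in B6toNOD (3), -0.82 in NOD.H2h4 (4), -0.48 in kidney (3) and 0.29 in B6.NODIdd1,5 T cells (2). Of 20 T cell markers 5 had probes, and the median of those tested was 0.16 in NOD (5 tested), -0.047 in NODtoB6 (5), 0.88 in B6toNOD (2), -0.79 in B6.NODIdd1,5 T cells (4) and -0.13 in NOD.H2h4 (5). Of 14 B cell markers 5 had probes, with medians of -0.12 in NOD (5 tested), -1.41 in NODtoB6 (5), -1.67 in B6toNOD (4), 0.071 in B6.NODIdd1,5 T cells (4) and -1.07 in NOD.H2h4 (5). Among them Btk was higher in NOD (0.60 ± 0.14), NOD.H2h4 (2.11 ± 0.14) and B6toNOD (1.34 ± 0.14). Lower were Blk in NOD.H2h4 (-1.44), Cd79b in B6toNOD (-2.07) and Vpreb3 and Blk in NODtoB6. The other B cell markers tested in these groups did not pass. Medians over different members of a list are not set against each other. The 5 measured kidney segment markers of 12 had a mean of 0.43 to 0.45 in kidney. Centring added 0.46 in kidney, so without it this mean, and Lyz2 there, would lie near 0. In NOD.H2h4 centring added 0.81. Without it Ltf and the mean of the neutrophil and myeloid markers there would lie below 0. As ratios these values do not show whether a marker is present or absent, and their part in the globin values was not tested.

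**Figure D5:**
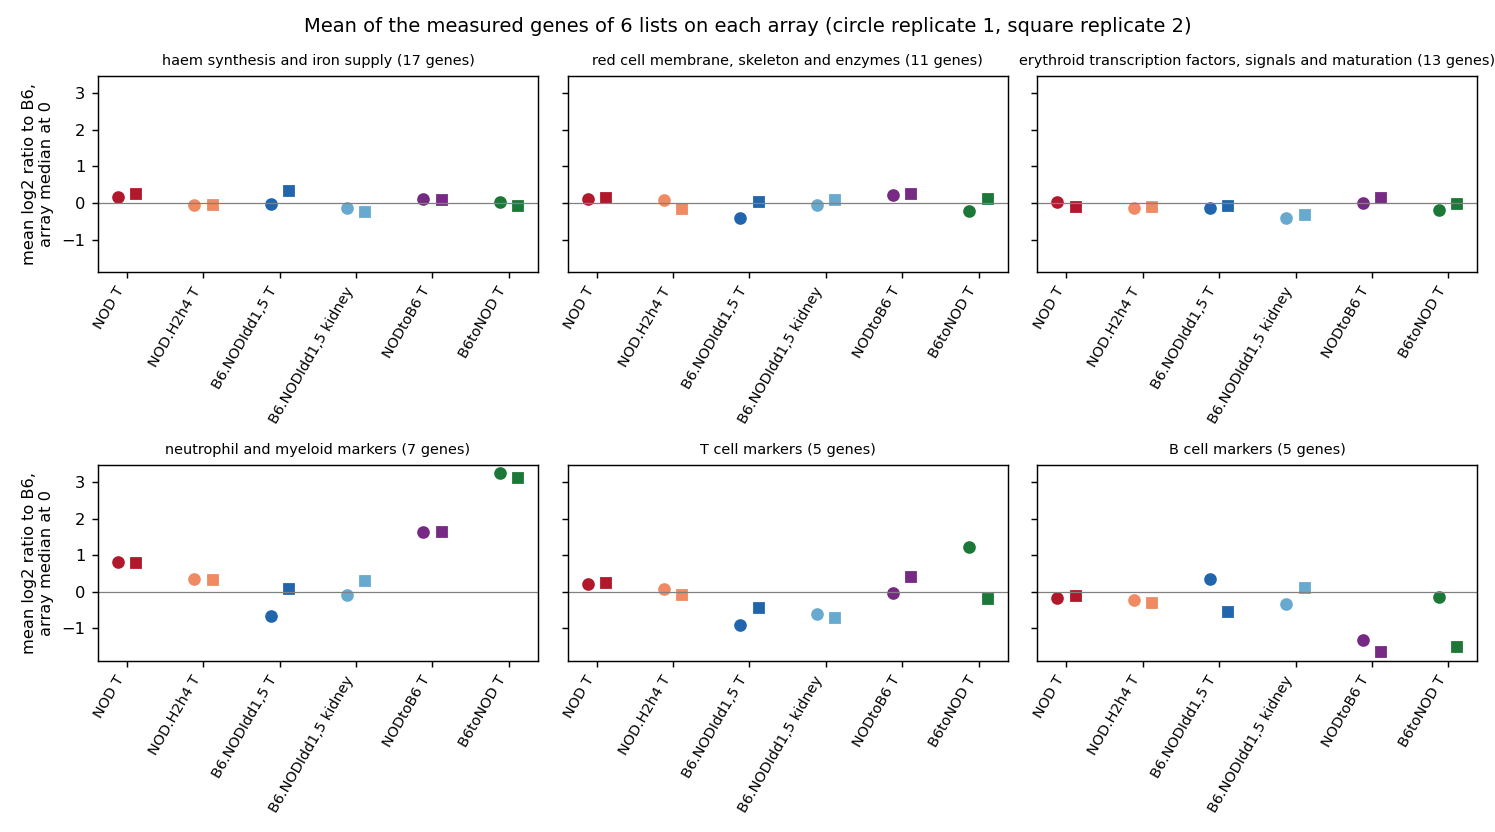
Mean centred log2 ratio to B6 (vertical axis) over the measured genes of 6 lists on each array, by group (horizontal axis), with a circle for replicate 1 and a square for replicate 2. The 3 lists of the upper row, from red cell formation, stay between -0.42 and 0.32 on every array, over the members with a value on that array, and the neutrophil and myeloid list reaches 3.10 to 3.23 in B6toNOD.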

How the data were processed

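Spleen T cell or kidney RNA of 6 groups was measured on 12 two-channel cDNA arrays. Each deposited value is a log2 ratio of the named mice to B6 for a probe, Cy5 over Cy3 on the strain arrays per the labels. The labels do not name the dyes of the marrow transfer arrays, and the same direction was assumed. Scanner settings, background correction and normalization: not given in the sources used here. Values at the ceiling of the files (146 cells, 0 of them in the 13 probes) were taken as missing. Probes were named by the platform's probe table, updated through RefSeq gene identifiers: of 20736 probes 13033 had 1 symbol, 312 several and 7391 none, and 12850 of the named ones were found by identifier. Each array was centred on its median, and the probes of a gene were averaged, which gave 16411 features, 8708 of them genes.

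A model of group means over all 12 arrays was fitted with limma 3.58.1 in R 4.3.3 (6 residual degrees of freedom), with Benjamini-Hochberg adjustment over all features with a value on every array of the groups compared. On simulated data for NOD against B6 (15931 features) a log2 shift of 1 was recovered for 55% and a shift of 2 for 83% of changed features, with 8 false calls. The number of arrays, 2 per group, limits the precision. Alternatives were values as deposited, arrays scaled to the same spread, a running median over 501 probes along the probe order, other handling of missing values and probes, other sets of arrays, a replicate block, turned signs of the marrow arrays, and each array left out. Deviations of arrays with the same replicate number correlated at -0.036 to 0.022 over 15 pairs of groups, and the reported fit used no pairing. These values cannot exclude a shared source, since each deviation also holds the noise of its own arrays and the labels name no animals. The genes and lists were chosen with earlier results of these data known. The text names all 8 genes, members of the lists by value or role, and for each gene the 3 with the highest Pearson's r. Promoter sequences are from RefSeq (GRCm38.p6), and figures were drawn with matplotlib 3.10.9.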

Additional observations from a re-analysis of the deposited data

Results flagged for a closer look

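In B6.NODIdd1,5 mice the ratios to B6 of 5 genes differed between spleen T cells and kidney cells, in a limma contrast added after the data were seen. The difference, T cells minus kidney, was -1.13 ± 0.18 for Hbb-b1 (adjusted p = 0.00452), -0.58 ± 0.11 for Hbb-bh1 (adjusted p = 0.0127), -0.55 ± 0.14 for Hbb-y (adjusted p = 0.0289), -0.62 ± 0.16 for Hba-x (adjusted p = 0.0293) and -1.34 ± 0.23 for Alas2 (adjusted p = 0.0089). Thus 5 of 8 genes were lower and 0 higher, against 13.5% and 6.96% of features. Without centring, and with the arrays scaled to the same spread, 0 of the 8 passed. Without centring Hbb-b1 was at -0.86 (adjusted p = 0.0732) and Alas2 at -1.07 (adjusted p = 0.0718). Single arrays also ended calls: Hbb-bh1 without either kidney array (adjusted p = 0.065 to 0.0874), Hbb-y without any array of NOD.H2h4 or of either B6.NODIdd1,5 group (adjusted p = 0.054 to 0.161), Hba-x without those arrays except kidney replicate 2 (adjusted p = 0.0535 to 0.173), and Alas2 without kidney replicate 2 (-1.26, adjusted p = 0.0623). Fech passed as lower without T cell replicate 2 (-0.81, adjusted p = 0.0194). Probe 5410 of Hbb-b1 carried its difference (-1.89, adjusted p = 6.72e-05), while probe 10282 was at -0.38 (adjusted p = 0.467).

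A signal outside the 13 probes was found on 18 probes whose several symbols include a globin and which therefore name no single gene. Their median over probes was 3.28 in NOD (2.78 to 3.92 over arrays and probes), 1.65 in NOD.H2h4 (1.07 to 2.58), 0.52 in kidney (0.42 to 0.89), 2.55 in NODtoB6 (1.52 to 3.03) and 1.71 in B6toNOD (0.91 to 2.33). In B6.NODIdd1,5 T cells it was -0.59 (-1.14 to 0.20). The kidney median is close to the 0.46 that centring added there, so without centring it would lie near 0. The marrow values turn with the sign of those arrays. Groups of 2 arrays are too small to look for single arrays that stand apart.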

How the results depend on the processing

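Over the alternatives run, the value of a gene in a comparison kept its direction and its side of the threshold in 1715 cases, lost the call in 184, gained it in 55, turned with a call on either side in 35, and crossed 0 without a call in 22. The counts of genes in this section stand without the share of all features called under the same setting. A change in a count therefore cannot be told apart from a change over the whole array. Without centring, for one, 3.75% of the called features in NOD.H2h4 were higher, against 61.8% in the reported fit. Counts below are genes higher or lower than B6 unless a difference is named. Without centring they were 1 higher and 1 lower in NOD.H2h4, 2 lower in kidney, 1 higher and 2 lower in B6toNOD, 0 higher in NOD.H2h4 minus NOD and in NODtoB6 minus NOD, and 0 lower in B6.NODIdd1,5 T cells minus kidney; the called values that turned were Hbb-y -0.088, Alas2 -0.086 and Gata1 -0.14 in NOD.H2h4, Hbb-bh1 -0.25 and Hbb-y -0.056 in B6toNOD, and Gata1 -0.13 in NOD.H2h4 minus NOD. Values that crossed 0 with no call were Gata1 in NOD (-0.0094), Hbb-bh1 (-0.22), Hbb-y (-0.38), Hba-x (-0.16) and Fech (-0.36) in kidney, Fech in B6toNOD (-0.16), and Fech (0.16) and Gata1 (0.11) in T cells minus kidney. With arrays scaled to the same spread they were 3 higher in NOD.H2h4, 3 lower in B6.NODIdd1,5 T cells, 1 higher in B6toNOD, 0 higher in NOD.H2h4 minus NOD, 0 higher and 3 lower in NODtoB6 minus NOD (Hbb-b1 -2.71, Hbb-bh1 -1.52 and Gata1 -0.65 passed, and Hbb-y -0.51, Hba-x -0.44 and Alas2 -0.35 turned without passing) and 0 lower in T cells minus kidney. With a running median they were 1 higher and 0 lower in kidney, 0 lower in NODtoB6 and 3 lower in T cells minus kidney, also 3 with features on all 12 arrays. With only the arrays compared they were 1 lower in NOD.H2h4, 0 lower in B6.NODIdd1,5 T cells, 2 higher and 2 lower in kidney, 0 either way in NODtoB6 and B6toNOD, and 0 higher in NODtoB6 minus NOD and minus B6toNOD; such fits have fewer arrays. Without the kidney arrays 0 were lower in NODtoB6 and 0 higher in NOD.H2h4 minus NOD. The cause of these changes was not tested.

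With the sign of the NODtoB6 arrays turned, 1 was higher and 6 lower against B6 (Hbb-b1 -2.83, Hbb-bh1 -3.10, Hbb-y -2.73, Hba-x -2.53, Alas2 -2.81, Fech -1.84, Gata1 0.35), 0 higher and 6 lower against NOD (Hbb-b1 -6.14, Hbb-bh1 -5.91, Hbb-y -4.73, Hba-x -4.38, Alas2 -4.73, Fech -3.02) and 1 higher and 5 lower against B6toNOD (Hbb-b1 -4.54, Hbb-bh1 -3.58, Hbb-y -3.41, Hba-x -3.31, Fech -2.41). With the B6toNOD arrays turned, 1 was higher and 4 lower against B6 (Hbb-b1 -1.71, Hbb-bh1 -0.49, Hbb-y -0.68, Hba-x -0.78, Gata1 1.17), 1 was higher against NOD (Gata1 1.03, with Hbb-b1 at -5.02), and 1 was lower in NODtoB6 minus B6toNOD (Gata1 -1.52).

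With a replicate block 0 genes were lower in NODtoB6 and 0 higher in NOD.H2h4 minus NOD. The block ended the calls of Gata1 in kidney, NODtoB6 and NOD.H2h4 minus NOD, of Fech in NOD (adjusted p = 0.0525 by limma) and NODtoB6 minus B6toNOD, and of Alas2 in NODtoB6 minus NOD, and Hba-x in B6.NODIdd1,5 T cells passed (0.0476), as did Slc4a1 in kidney (0.0445) and in NODtoB6 minus B6toNOD (0.0442).

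With each array left out in turn the counts higher were 5 to 7 in NOD, 4 to 5 in NOD.H2h4, 0 to 1 in B6.NODIdd1,5 T cells (Fech -0.72 to 0.70), 0 to 2 in kidney, 6 in NODtoB6, 4 to 5 in B6toNOD, 0 to 1 in NOD.H2h4 minus NOD, 0 to 4 in NODtoB6 minus NOD and 5 to 7 in NODtoB6 minus B6toNOD. Counts lower were 0 to 1 in NOD.H2h4, 2 to 7 in B6.NODIdd1,5 T cells, 0 to 2 in kidney, 0 to 1 in NODtoB6, 1 to 2 in B6toNOD, 3 to 6 in NOD.H2h4 minus NOD, 5 to 7 in B6.NODIdd1,5 minus NOD, 0 to 2 in NODtoB6 minus NOD, 5 to 7 in B6toNOD minus NOD and 2 to 5 in T cells minus kidney. A lone array was assumed to vary like those of the other groups.

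Over all features, the share of called features that were higher moved without centring from 79.7% to 55% in NOD (63.5% scaled), 61.8% to 3.75% in NOD.H2h4, 49.5% to 26.8% in B6.NODIdd1,5 T cells, 67.2% to 8.54% in kidney, 49.7% to 16.7% in NODtoB6 and 53.5% to 9.5% in B6toNOD. Counts of called features ranged over the alternatives from 190 to 4919 in NOD (1922 in the reported fit), 3842 to 10076 in NOD.H2h4 (6248), 0 to 5490 in B6.NODIdd1,5 T cells (4504), 2492 to 9710 in kidney (5231), 0 to 5453 in NODtoB6 (4092) and 0 to 9427 in B6toNOD (7350).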
